A study of Mus musculus with 12 samples.

Results

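Pax3, Pax7, Msx1, Msx2, Zic1, Zic4, Foxd3, Sox10, Lmx1a and Gdf7 are 10 mouse genes of the dorsal neural tube and the neural crest, out of 21938 protein-coding genes annotated on the autosomes and sex chromosomes. They were chosen by name. An accessible domain, meaning a stretch that the authors called open from ATAC-seq, was assigned to a gene when it touched the promoter (1 kb to either side of a transcription start site, TSS), touched the gene body, or had that gene as the nearest protein-coding TSS. The 6 lists held 482514 domains together, of which 575 were assigned to these genes. Domains show where DNA was open to the transposase and do not measure transcription, and in pooled cultures, accessibility in fewer cells and weaker accessibility per cell cannot be told apart.

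During development the dorsal neural tube is patterned by BMP and Wnt signals from the surface ectoderm and the roof plate, and the ventral tube by Hedgehog. Pax3, Pax7, Zic1 and Zic4 encode transcription factors of dorsal progenitors and of the neural plate border, from which the crest arises. Msx1 and Msx2 are homeodomain targets of BMP, Lmx1a is a LIM-homeodomain factor of the roof plate, and Gdf7 is a BMP-family ligand made there. Foxd3 acts early in crest specification and is also a factor of pluripotent cells, and Sox10 marks migrating crest and glia. All cultures here except EBs received a Hedgehog agonist, which ventralizes neural cells, and these genes belong to the opposite end of the axis.

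ATAC-seq was performed on mouse embryonic stem cell-derived cultures in 6 groups of 2 samples each, and 1 domain list per group was deposited. Embryoid bodies (EBs) received neither retinoic acid nor the Smoothened agonist SAG, and day 2 progenitors received 1 μM retinoic acid and 0.5 μM SAG for 2 days. Both came from the line Ainv15(iCre). The iHoxc6, iHoxc9 and iHoxc10 cultures received the same retinoic acid and SAG for 4 days and 3 μg/mL doxycycline (Dox) for the last 48 h, and came from Ainv15(iFlag.Hoxc6), Ainv15(iFlag.Hoxc9) and Ainv15(iFlag.Hoxc10), each with 1 copy of a Flag-tagged Hox transgene at the HPRT locus. The no Dox control received retinoic acid and SAG for 4 days without Dox and came from the iHoxc6 line. The labels call all 12 samples Embryoid Bodies, and no cell type was purified; per the study, motor neurons and interneurons form by the end of the treatment. The question put to these genes was whether their open domains differed before patterning, after patterning, and after induction of each Hox factor.

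The lists of EBs, progenitors, no Dox, iHoxc6, iHoxc9 and iHoxc10 held 94875, 87916, 88806, 91181, 63504 and 56232 domains over 23.1, 25.7, 29.7, 24.8, 17.8 and 20.1 Mb. The iHoxc9 and iHoxc10 lists were the shortest, so values are given beside those of the whole list. Each list holds positions alone, without heights or replicate values, so the depth is unknown, no test across samples was possible, and the 95% Wilson intervals cover the counting of domains only and take neighbouring domains as independent. The labels of the other 10 samples share a run identifier that the no Dox labels lack, and the no Dox list has 6 columns where the others have 3; run and list-making cannot be told apart from treatment in any comparison with no Dox. Cell line cannot be told apart from treatment either where no Dox is compared with progenitors, iHoxc9 or iHoxc10, whereas no Dox and iHoxc6 share a line. The name of the no Dox list also carries a p threshold that the names of the other lists lack. As a check of the labels, 6 of 6 pluripotency genes had a promoter domain in EBs, 4 in progenitors and 3 in each day 4 list, and the domains of 6 motor neuron genes covered 13 kb in EBs, 13.5 kb in progenitors and 27.4 kb in no Dox. In iHoxc6, iHoxc9 and iHoxc10 they covered 21.2, 12.1 and 18.4 kb.

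Sequences of 7 regions stand for the patterns of accessibility found around these genes. Regions are domains of the 6 lists merged where they overlapped, and outside promoters the widest of each of 6 patterns is shown, with the Sox10 region added after its values were seen because it had the longest domain at that gene. Each window is 300 bases of the mm10 plus strand around the centre of the stretch its lists share, or of the region for Sox10. Capitals mark TAAT, a core read by anterior and central Hox and many other homeodomain factors, and TTTAT, the core of posterior Hox factors, on either strand.

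The Lmx1a downstream region was held by all 6 lists (chr1:167915268-167915567, intergenic, 226 kb downstream of the TSS).
Lmx1a downstream region: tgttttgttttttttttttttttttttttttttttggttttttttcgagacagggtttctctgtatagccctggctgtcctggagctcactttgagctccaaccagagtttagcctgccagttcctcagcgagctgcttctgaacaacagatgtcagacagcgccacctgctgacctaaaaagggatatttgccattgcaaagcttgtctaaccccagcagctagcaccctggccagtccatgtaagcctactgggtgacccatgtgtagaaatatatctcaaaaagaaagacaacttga
The Foxd3 upstream region was held by EBs alone (chr4:99584074-99584373, intergenic, 72.1 kb upstream).
Foxd3 upstream region: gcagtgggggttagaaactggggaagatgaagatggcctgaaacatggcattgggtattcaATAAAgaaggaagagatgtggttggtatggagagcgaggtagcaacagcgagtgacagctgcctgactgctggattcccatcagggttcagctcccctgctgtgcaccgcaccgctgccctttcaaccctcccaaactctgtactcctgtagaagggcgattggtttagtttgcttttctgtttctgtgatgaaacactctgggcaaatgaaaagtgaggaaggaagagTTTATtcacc
The Msx1 upstream region was absent from EBs and held by the other 5 lists (chr5:37851446-37851745, intergenic, 26.8 kb upstream).
Msx1 upstream region: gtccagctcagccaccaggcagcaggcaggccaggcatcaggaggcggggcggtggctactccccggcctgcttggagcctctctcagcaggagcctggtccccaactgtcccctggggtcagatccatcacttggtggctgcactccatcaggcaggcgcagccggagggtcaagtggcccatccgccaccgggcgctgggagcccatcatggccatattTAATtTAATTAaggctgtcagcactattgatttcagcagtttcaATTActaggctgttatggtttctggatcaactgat
The Sox10 upstream region was held by the same lists, but they share no stretch within it (chr15:79193027-79193326, intergenic, 27.9 kb upstream).
Sox10 upstream region: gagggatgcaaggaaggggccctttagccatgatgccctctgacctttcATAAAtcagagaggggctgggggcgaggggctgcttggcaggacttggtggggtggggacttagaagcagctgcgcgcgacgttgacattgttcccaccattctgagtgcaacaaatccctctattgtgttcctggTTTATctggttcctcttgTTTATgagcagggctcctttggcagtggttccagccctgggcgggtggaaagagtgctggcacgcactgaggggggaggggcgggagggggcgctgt
The Msx2 upstream region was held by progenitors and no Dox and by no induced list (chr13:53757056-53757355, intergenic, 284 kb upstream).
Msx2 upstream region: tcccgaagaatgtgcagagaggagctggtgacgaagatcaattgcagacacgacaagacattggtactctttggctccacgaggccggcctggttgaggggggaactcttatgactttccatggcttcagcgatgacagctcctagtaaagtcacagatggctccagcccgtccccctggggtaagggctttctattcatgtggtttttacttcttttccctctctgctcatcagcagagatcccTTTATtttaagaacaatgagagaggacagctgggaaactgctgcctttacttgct
The Pax3 upstream region was held by EBs, progenitors, no Dox and iHoxc6 and by neither iHoxc9 nor iHoxc10 (chr1:78217029-78217328, intergenic, 20 kb upstream).
Pax3 upstream region: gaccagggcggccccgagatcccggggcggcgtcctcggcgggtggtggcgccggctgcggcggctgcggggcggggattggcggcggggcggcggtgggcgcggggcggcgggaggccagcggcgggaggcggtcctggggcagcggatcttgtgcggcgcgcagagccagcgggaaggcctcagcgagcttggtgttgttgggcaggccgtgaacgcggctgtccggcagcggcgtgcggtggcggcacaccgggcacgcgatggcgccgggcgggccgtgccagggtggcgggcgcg
The Pax3 downstream region was held by iHoxc9 alone (chr1:78021938-78022237, intergenic, 175 kb downstream).
Pax3 downstream region: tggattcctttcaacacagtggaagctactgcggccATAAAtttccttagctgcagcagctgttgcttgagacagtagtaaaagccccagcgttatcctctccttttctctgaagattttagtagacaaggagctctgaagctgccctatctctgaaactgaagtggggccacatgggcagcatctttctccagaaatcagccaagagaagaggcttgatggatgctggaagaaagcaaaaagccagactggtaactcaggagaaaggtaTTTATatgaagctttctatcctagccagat

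The Msx1 window held all 4 TAAT matches of these windows, some of them overlapping, and no TTTAT. The 8 TTTAT matches fell in the Sox10 window (3), the Foxd3 window (2), the Pax3 downstream window (2) and the Msx2 window (1). Neither the Pax3 upstream window nor the Lmx1a window held a match to TAAT or TTTAT. Their GC content was 80.7% and 43.7%, against 48.8% over all windows of that length centred on the 218562 merged regions of the 6 lists. TAAT occurred in 72.8% and TTTAT in 50.5% of those windows, so a match is ordinary. E-boxes (CANNTG) numbered 16 over the 7 windows and occurred in 81.3% of all windows. The Sox cores ACAAAG and ACAATG had 0 and 2 matches and occurred in 27.3% and 18.6% of all windows, and TGGGTGG, part of the GLI consensus, had 0 matches and occurred in 7.64%. Both strands were searched, and a TAAT can share bases with an adjoining TAAT or TTTAT. A match is a description and not a binding site.

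Over all 10 genes, accessible domains were most numerous in EBs and fewest after HOXC9 or HOXC10 induction. EBs held 134 domains, progenitors 107, no Dox 98, iHoxc6 112, iHoxc9 63 and iHoxc10 61. With promoters and gene bodies alone EBs no longer led, at 38 against 41 in progenitors, 39 in no Dox and 46 in iHoxc6, and iHoxc9 and iHoxc10 remained the fewest at 28 and 24. Part of the order is that of the list sizes, since these were 0.141%, 0.122%, 0.11%, 0.123%, 0.0992% and 0.108% of the domains of each list. Covered length spread more widely: 30.1 kb in EBs, 26.1 kb in progenitors, 24.9 kb in no Dox, 20.9 kb in iHoxc6, 12 kb in iHoxc9 and 12.9 kb in iHoxc10, or 0.13%, 0.101%, 0.0838%, 0.0843%, 0.0676% and 0.0639% of the covered bp. The share of the covered bp was thus highest in EBs and lowest in the iHoxc9 and iHoxc10 lists. Domains of at least 500 bp numbered 16, 17, 19, 8, 5 and 5 in the same order. Such domains were not counted over the whole lists, so whether this order is particular to these genes was not tested.

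**Figure D1:**
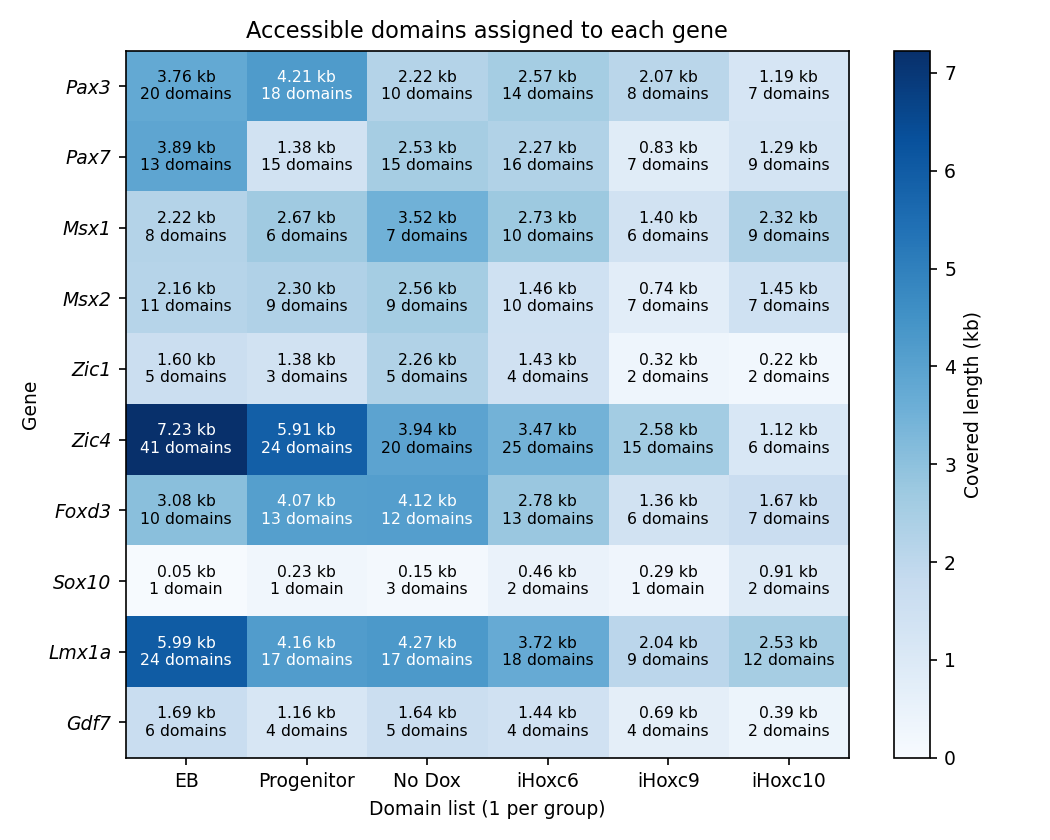
Covered length in kb (colour and upper text) and number of domains (lower text) assigned to each of the 10 genes (rows) in the domain lists of the 6 groups (columns), with 1 list per group and no replicate values. Zic4 in EBs is the darkest cell, with 41 domains over 7226 bp, and Sox10 is pale in every list.

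Promoters of these genes were mostly open in EBs, in progenitors and in the control at day 4. At least 1 promoter domain was present at 9 of the 10 genes in EBs, progenitors and no Dox, at 8 in iHoxc6, at 7 in iHoxc9 and at 5 in iHoxc10. Over all protein-coding genes the shares were 69.1%, 66.5%, 65.4%, 65.7%, 62.9% and 62.5%, a narrower span than that of these genes. Many of the promoter domains were short. With domains under 150 bp left out, the counts were 9 genes in EBs, 8 in progenitors, 8 in no Dox and 7 in iHoxc6. They were 4 in iHoxc9 and 3 in iHoxc10. The share over all genes at that width was not computed, so these filtered counts have no background. Msx1, Msx2, Zic4 and Gdf7 had a promoter domain in all 6 lists, and the other 6 genes lacked it in at least 1.

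**Figure D2:**
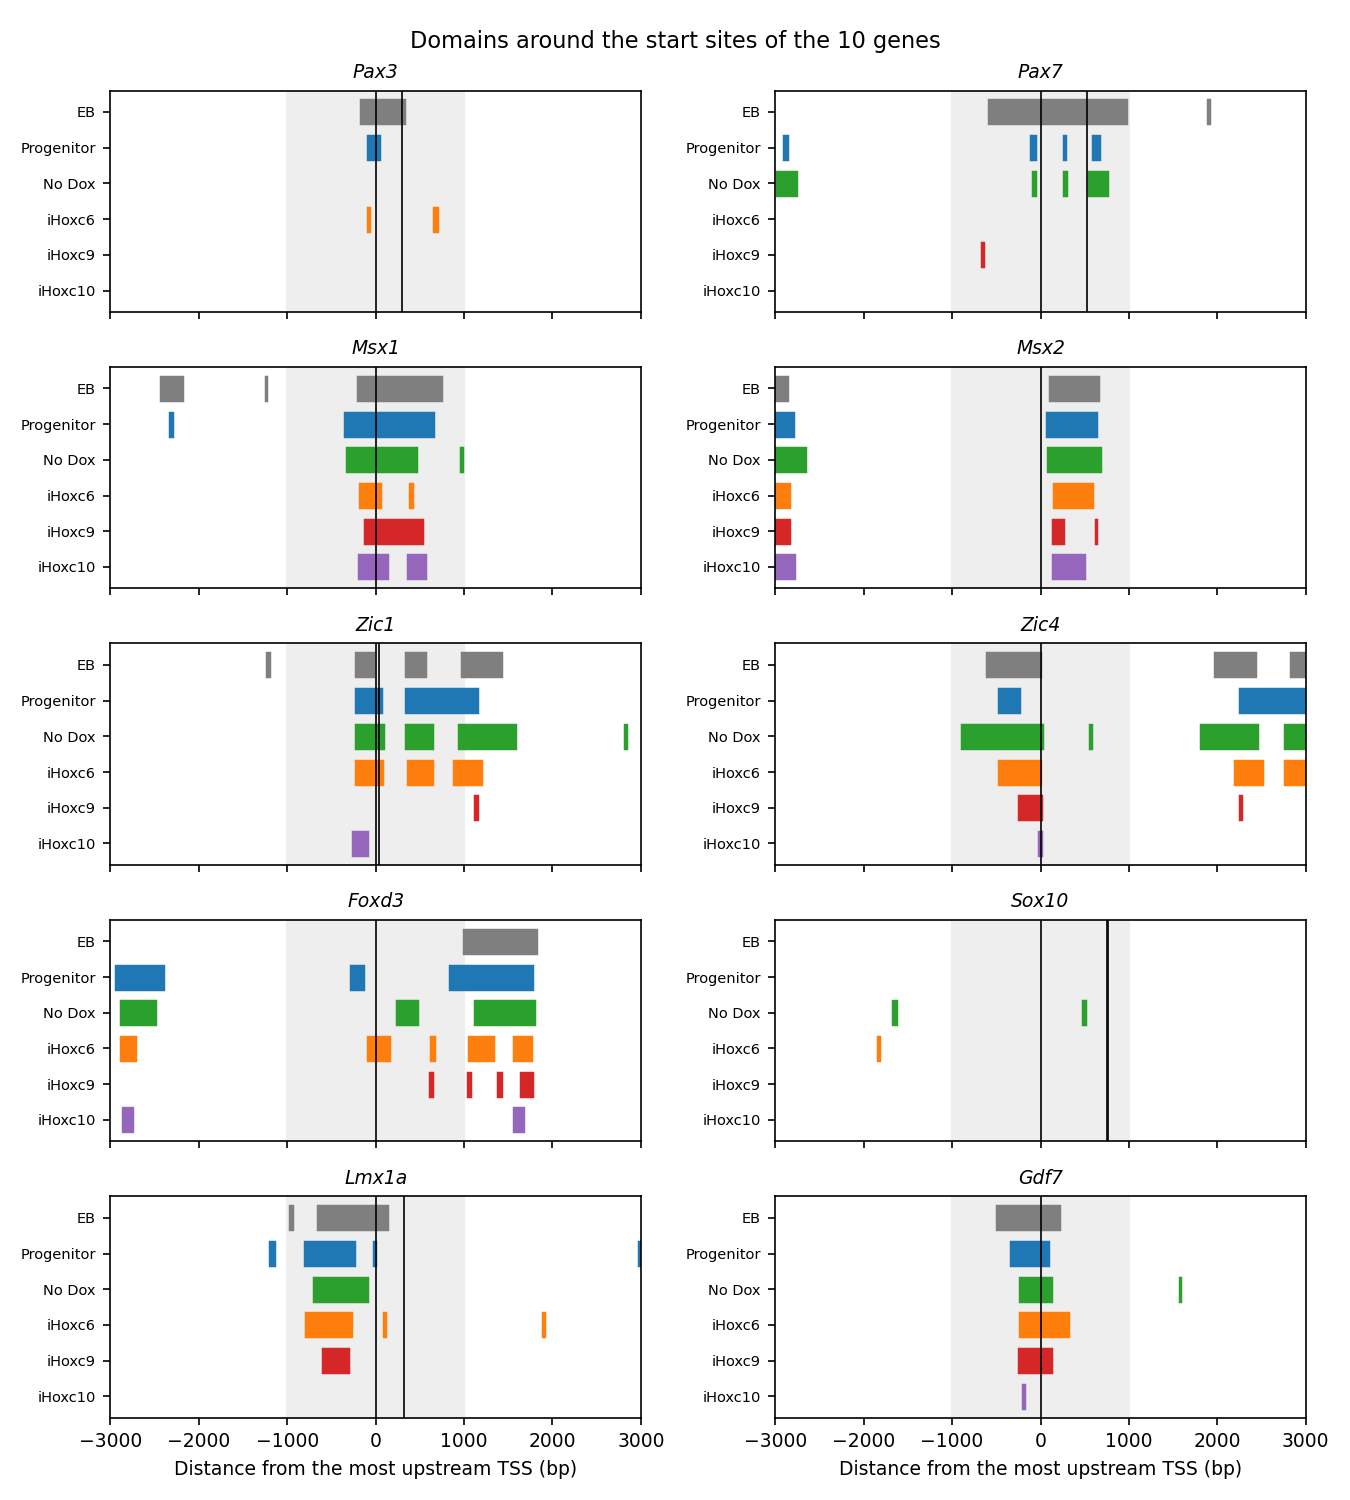
Domains (bars, coloured by list) within 3 kb of the most upstream annotated TSS of each gene, in bp along the direction of transcription. Vertical lines are annotated TSSs and the grey band spans 1000 bp to either side of the most upstream of them. Msx1 and Msx2 keep a domain at the same place in all 6 lists, whereas the 1576 bp EB domain of Pax7 is replaced by short pieces.

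Roof plate genes were considered first. Msx1 (chr5:37820485-37824583, minus strand) kept a domain over or beside its TSS in every list, with the widest promoter domain at 964 bp in EBs, 1010 bp in progenitors, 811 bp in no Dox, 244 bp in iHoxc6, 662 bp in iHoxc9 and 341 bp in iHoxc10. The induced lists therefore had the shorter promoter domains, iHoxc6 the shortest. Over all domains assigned to it, Msx1 had 2219, 2668, 3516, 2729, 1395 and 2317 bp in the order EB, progenitor, no Dox, iHoxc6, iHoxc9 and iHoxc10, and this order is kept for the genes below. The region 26.8 kb upstream, whose sequence is shown above, contributed 0, 516, 1045, 748, 423 and 567 bp. It was the widest distal region of these genes to be absent from EBs and held by every later list.

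Msx2 (chr13:53466884-53473074, minus strand) had its promoter domain downstream of the TSS, in the first part of the gene. It measured 568 bp in EBs, 580 bp in progenitors, 611 bp in no Dox, 448 bp in iHoxc6 and 380 bp in iHoxc10, and in iHoxc9 it was split into pieces of 138 and 32 bp. Only iHoxc9 lacked a domain of at least 150 bp at this promoter. Covered length over the gene was 2161, 2304, 2560, 1460, 739 and 1451 bp, lowest in iHoxc9. The region 284 kb upstream, also shown above, had 211 bp in progenitors and 286 bp in no Dox and was absent from the other 4 lists.

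Lmx1a (chr1:167689237-167848741, plus strand) had a domain upstream of its TSS, or across it in EBs, that measured 798 bp in EBs, 573 bp in progenitors, 619 bp in no Dox, 537 bp in iHoxc6 and 311 bp in iHoxc9. No promoter domain of Lmx1a was in the iHoxc10 list. Covered length was 5988, 4160, 4271, 3719, 2045 and 2530 bp, highest in EBs and lowest in iHoxc9. Its loss in iHoxc10 was at the promoter and not throughout: a region in an Lmx1a intron (chr1:167802531-167803451, 113 kb downstream of the TSS) was held by all 6 lists, with 576, 633, 916, 477, 493 and 866 bp. The region 226 kb downstream, shown above, had 864 bp in EBs and 189, 524, 173, 243 and 187 bp in the later lists.

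Gdf7 (chr12:8297918-8301954, minus strand), the only secreted ligand of the 10, had a domain across its TSS in EBs (724 bp), progenitors (434 bp), no Dox (368 bp), iHoxc6 (557 bp) and iHoxc9 (385 bp). In iHoxc10 a piece of 34 bp upstream of the TSS was left. Covered length was 1693, 1158, 1637, 1438, 688 and 387 bp, and iHoxc10 held 2 Gdf7 domains where no Dox held 5. The gene has little room for distal domains under this assignment, since the stretch for which it is the nearest protein-coding gene spans 23 kb.

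Among the dorsal progenitor genes, Pax3 (chr1:78101267-78197134, minus strand) had a promoter domain of 506 bp in EBs and 153 bp in progenitors, both across a TSS. None was present in no Dox, iHoxc9 or iHoxc10, and iHoxc6 had pieces of 56 and 34 bp that did not touch a TSS. Covered length was 3759, 4209, 2216, 2566, 2068 and 1186 bp. Most of it lay outside the promoter: the region 20 kb upstream contributed 1181, 484, 226 and 241 bp in the first 4 lists and was absent from iHoxc9 and iHoxc10. A region in a Pax3 intron (chr1:78167678-78168273, 28.9 kb downstream of the TSS) had 596 bp in progenitors, 38 bp in no Dox and 234 bp in iHoxc6 and was absent from EBs, iHoxc9 and iHoxc10. A region 175 kb downstream, with 362 bp, was found in iHoxc9 alone, and it was the widest of the 14 distal regions particular to the iHoxc9 list, the iHoxc10 list or both.

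Pax7 (chr4:139737062-139833528, minus strand) had the widest domain of any of these genes, 1576 bp across both TSSs in EBs. Progenitors had 3 pieces of 90, 34 and 70 bp at the promoter, and no Dox 3 pieces of 234, 44 and 47 bp at nearly the same places. iHoxc6 and iHoxc10 had no Pax7 promoter domain, and iHoxc9 had a piece of 29 bp. Covered length was 3886, 1384, 2526, 2273, 832 and 1289 bp. The number of Pax7 domains did not follow it, at 13, 15, 15, 16, 7 and 9, and the single promoter domain of 1576 bp made up much of the EB length. The median Pax7 domain measured 130 bp in EBs, 58 bp in progenitors and 132 bp in no Dox.

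Zic1 (chr9:91358058-91365810, minus strand) and Zic4 (chr9:91362413-91389348, plus strand) are a divergent, overlapping pair, and every Zic1 domain was also assigned to Zic4. In the usual order of the lists the locus held 41, 24, 20, 25, 15 and 6 domains, over 7226, 5912, 3941, 3466, 2585 and 1120 bp. It held the most domains of the set in every list but iHoxc10, where Lmx1a had 12, and Zic4 is the nearest protein-coding gene over 969 kb. Outside it the other 8 genes held 93, 83, 78, 87, 48 and 55 domains, over 22828, 20181, 20997, 17421, 9420 and 11735 bp.

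The promoters of the pair differed in which lists held them. A domain across or just upstream of the Zic1 TSS measured 219 bp in EBs, 306 bp in progenitors, 329 bp in no Dox and 319 bp in iHoxc6. In iHoxc9 no domain touched the Zic1 promoter, and in iHoxc10 a piece of 179 bp was left upstream of the TSS. At the most upstream Zic4 TSS, which lies inside Zic1, the domain measured 627, 255, 932, 495, 280 and 45 bp. The Zic1 promoter domain was thus lost in iHoxc9 where that of Zic4 was kept, and the Zic4 domain was shortest in iHoxc10. A region 6.56 kb upstream of Zic4 (chr9:91355659-91356046) had 318 bp in EBs, 82 bp in progenitors and 86 bp in no Dox, and a region 9.42 kb upstream (chr9:91352834-91353151) had 290 bp in progenitors and 135 bp in no Dox; both were absent from all 3 induced lists. A region 27.5 kb downstream of the nearest Zic4 TSS (chr9:91405958-91406408) had 241, 451, 167 and 64 bp in the first 4 lists and was absent from iHoxc9 and iHoxc10.

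**Figure D3:**
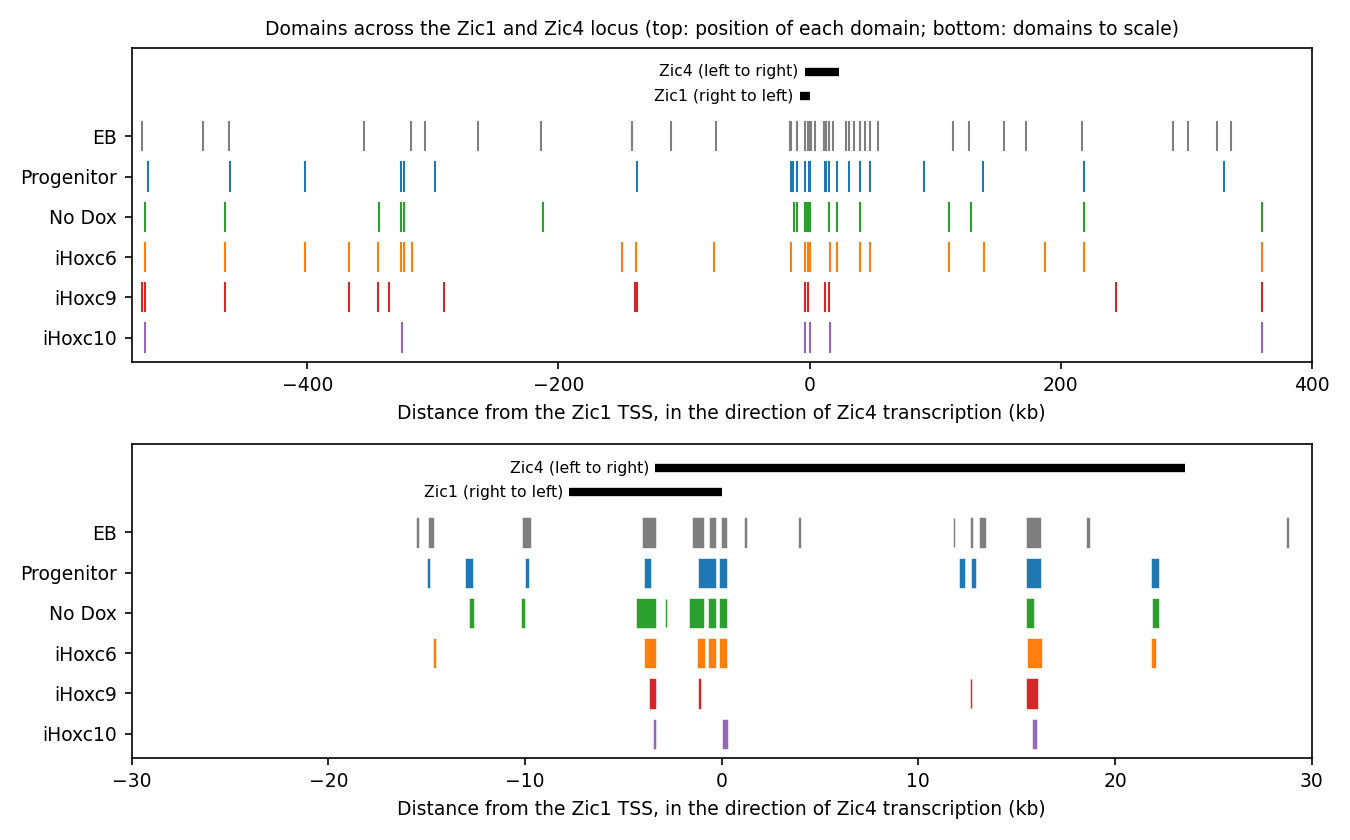
Domains of the 6 lists (rows) along the Zic1 and Zic4 locus, by distance in kb from the Zic1 TSS, over the whole stretch assigned to the pair (top; a line marks each domain, not its width) and within 30 kb (bottom; bars are to scale with a thin outline). Black bars are the genes with their direction of transcription. EBs have the most domains, 41, and iHoxc10 the fewest, 6; iHoxc6, with 25, has more than no Dox, with 20.

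The crest genes differed from each other. Foxd3 (chr4:99656299-99658622, plus strand) had wide domains in the later part of its gene body, of 841 bp in EBs and 948 bp in progenitors, that reached into the promoter window. The region they form was held by all 6 lists, with 841, 948, 693, 498, 236 and 121 bp. Nearer its TSS, progenitors had 158 bp upstream of it, no Dox 248 bp downstream and iHoxc6 259 bp across it. These 3 domains did not overlap, so they are not 1 domain followed through the lists. A piece of 47 bp in iHoxc9 lay 605 to 651 bp downstream, where iHoxc6 had 55 bp, and iHoxc10 had no promoter domain. Covered length was 3075, 4065, 4116, 2777, 1364 and 1665 bp. Upstream of the gene, EBs and later stages held different stretches. Regions 72.1 kb upstream (583 bp) and 14.1 kb upstream (570 bp; chr4:99641880-99642449) were in EBs alone and were the widest of 73 distal EB-only regions of the 10 genes. A region 82 kb upstream (chr4:99573922-99574725) was absent from EBs and had 767, 627, 548, 389 and 550 bp in the later lists, and its neighbour 83.1 kb upstream (chr4:99572802-99573576) was held by all 6 lists, with 357, 249, 578, 670, 692 and 268 bp.

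Sox10 (chr15:79154908-79165240, minus strand) had almost no accessible domains. A piece of 43 bp in no Dox was its only promoter domain in the 6 lists, and no other domain touched the gene body. Covered length was 47, 233, 155, 459, 289 and 910 bp. The region 27.9 kb upstream held domains of every list but that of EBs, with 0 bp in EBs, 233 bp in progenitors, 60 bp in no Dox, 418 bp in iHoxc6, 289 bp in iHoxc9 and 692 bp in iHoxc10. The progenitor domain did not overlap the no Dox stretch, so this is a chain of merged domains and not 1 stretch open in all these lists. Covered length in the region was longest in iHoxc10, against the direction of the other 9 genes. A second iHoxc10 domain of 218 bp (chr15:79171271-79171488, 6.14 kb upstream) was in no other list.

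Domains of the 10 genes were then compared between stages by asking which had a counterpart, an overlap of at least 1 bp, in the other list. From EBs to progenitors, 86 of 134 domains (64.2%, interval 55.8 to 71.8) had no counterpart, against 57.4% of all EB domains. In the other direction 56 of 107 progenitor domains (52.3%, 43 to 61.6) were without an EB counterpart, against 55.4%. The domains without a counterpart were narrow, with a median width of 73 bp against 304 bp for the EB domains that were kept. Both shares had the background inside the interval, so turnover at these genes from EBs to progenitors was not set apart from that of the genome. Zic4 lost most in number, with 29 of 41 EB domains, and Zic1 least in share, with 1 of 5.

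From progenitors to no Dox the turnover was smaller. Of 107 progenitor domains, 50 (46.7%, 37.6 to 56.1) had no counterpart in no Dox, against 43.1% of all. Of 98 no Dox domains, 40 (40.8%, 31.6 to 50.7) had none in progenitors, against 44.9%. Pax3 lost the most in share among genes with more than 5 domains, 12 of 18, whereas Zic1 kept 3 of 3 and Msx2 7 of 9.

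The 57 domains of these genes that were open in progenitors and in no Dox were followed into the induced cultures. iHoxc6 lacked 11 (19.3%, 11.1 to 31.3), iHoxc9 28 (49.1%, 36.6 to 61.7) and iHoxc10 21 (36.8%, 25.5 to 49.8), against 14.1%, 30% and 28.4% of all such domains. The iHoxc9 share was the only one of these 3 whose interval lay above the background. Under each of 3 other settings (domains of at least 150 bp, equal list length, and a counterpart covering 50% of the domain) the interval of iHoxc10 lay above its background as well. Of the 57 domains 46 touched no promoter of any gene, compared with 34573 of all 49995. With all promoter windows left out, a comparison chosen after the data were seen, iHoxc6 lacked 8 of 46 (17.4%, 9.09 to 30.7), iHoxc9 24 of 46 (52.2%, 38.1 to 65.9) and iHoxc10 15 of 46 (32.6%, 20.9 to 47), against 17.7%, 38.4% and 36.3% of all domains outside promoters. There the background of iHoxc9 lay just inside the interval, and the iHoxc10 share turned from above to below its background. All 3 induced lists lacked 9 of the 57 (15.8%, all domains 9.47%) and all 3 held 23 (40.4%, all domains 60.3%).

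The domains lacked in iHoxc9 were also counted per gene. No gene had more than 10 domains to lose, Zic1 domains count at Zic4 too, and whether the genes differ was not tested. They were 7 of 10 at Pax7, 7 of 10 at Zic4, 4 of 7 at Foxd3, 4 of 10 at Lmx1a, 2 of 4 at Msx1, 2 of 7 at Msx2, 2 of 6 at Pax3, 1 of 3 at Zic1 and 0 of 3 at Gdf7, while Sox10 had no domain shared by progenitors and no Dox. iHoxc10 likewise lacked 7 of 10 at Zic4, 5 of 10 at Pax7 and 3 of 6 at Pax3, but 0 of 4 at Msx1. iHoxc6 lacked 5 of 10 at Pax7 and at most 2 at any other gene. With progenitors alone as the starting point, 47.7%, 69.2% and 60.7% of 107 domains were lacked by iHoxc6, iHoxc9 and iHoxc10, against 44.7%, 57.2% and 56.6% of all progenitor domains, and the intervals were 38.4 to 57, 59.9 to 77.1 and 51.3 to 69.5. iHoxc9 was the line whose interval lay above the background here too. These domains include the 57 followed above, and progenitors differ from the induced cultures in both line and day.

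Domains that appeared with induction, held by neither progenitors nor no Dox, were near the background in every line. They were 42 of 112 in iHoxc6 (37.5%, 29.1 to 46.7), 18 of 63 in iHoxc9 (28.6%, 18.9 to 40.7) and 10 of 61 in iHoxc10 (16.4%, 9.16 to 27.6), against 33.4%, 26% and 18.5% of each list. Their median widths were 43, 47 and 87 bp, against 238, 180 and 179 bp for the other domains of those lists. In iHoxc9, 8 of the 18 lay at Zic4 and 3 at Msx1. In iHoxc10, 3 lay at Msx1 and none at Zic4.

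**Figure D4:**
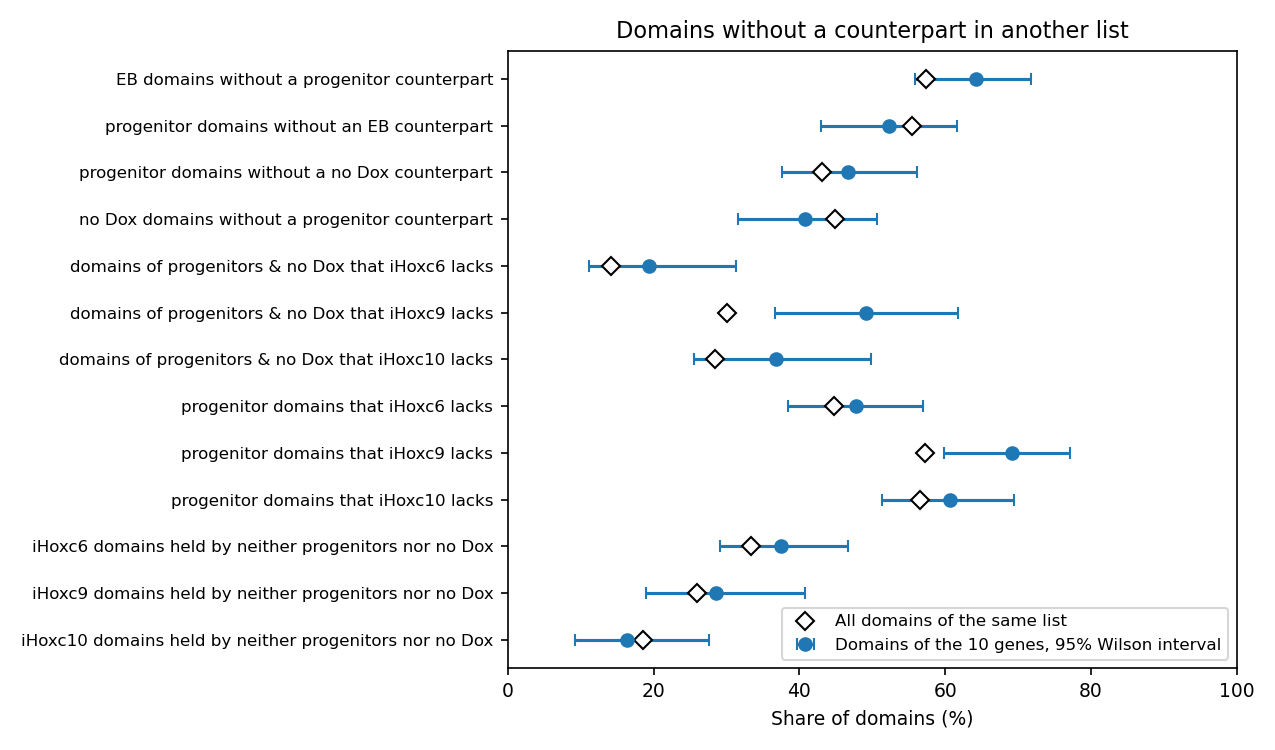
Share in percent of domains without a counterpart for 13 comparisons (rows). Blue points are the domains of the 10 genes with 95% Wilson intervals, which cover counting of domains only, and open diamonds are all domains of the same list. The diamond lies outside the interval for iHoxc9 alone, at 30% against 49.1% and at 57.2% against 69.2%.

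The same question was put per gene through covered length. A gene with at least 500 bp in either list was called higher at a ratio of 2 or more and lower at 0.5 or less, with lengths as deposited and after scaling to the covered bp of the whole list. From EBs to progenitors, 1 of 9 genes was lower, Pax7 at a ratio of 0.356 (0.319 scaled), and 0 were higher. Over all 15877 genes tested 7.8% were lower and 8.76% higher (9.76% and 6.24% scaled), and the median ratio was 1.11, against 0.861 for these genes. The other genes ran from 0.684 at Gdf7 to 1.32 at Foxd3. From progenitors to no Dox 0 of 9 passed as deposited, where 2.69% of all genes were lower and 5.68% higher. With scaling Pax3 was lower, at 0.455 (0.526 as deposited), where 4.01% of all genes were lower and 3.32% higher.

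In iHoxc6 against no Dox, the comparison within a single line, 0 of 9 genes were higher or lower on either scale, and the ratios ran from 0.57 at Msx2 to 1.16 at Pax3. Of all genes, 5.12% were lower and 1.07% higher as deposited, and 2.56% and 1.88% scaled. The median ratio was 0.871 for these genes and 0.826 for all genes.

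In iHoxc9, 7 of 9 genes were lower as deposited: Zic1 at 0.143, Msx2 at 0.289, Pax7 at 0.329, Foxd3 at 0.331, Msx1 at 0.397, Gdf7 at 0.42 and Lmx1a at 0.479. Zic4 at 0.656 and Pax3 at 0.933 were not, and 0 were higher. The whole list was short, with 31% of all genes lower and 0.514% higher and a median ratio of 0.607, against 0.397 for these genes. After scaling 2 of 9 were lower, Zic1 at 0.239 and Msx2 at 0.483, where 8.22% of all genes were lower and 2.42% higher. The scaled median of these genes was 0.664 against 1.02 for all.

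In iHoxc10, 4 of 10 genes were lower as deposited: Zic1 at 0.0992, Gdf7 at 0.236, Zic4 at 0.284 and Foxd3 at 0.405. Of all genes 17.3% were lower and 0.494% higher. After scaling Zic1 at 0.147, Gdf7 at 0.35 and Zic4 at 0.42 were lower, where 5.5% of all genes were lower and 1.66% higher, and the medians were 0.773 for these genes and 1.03 for all. Sox10 was the 1 gene called higher, at 5.87 as deposited and 8.68 scaled, from 155 to 910 bp. With 155 bp in no Dox, Sox10 met the minimum length set above only through iHoxc10, so no call but higher was open to it. In iHoxc6 and iHoxc9, at 2.96 and 1.86 as deposited, Sox10 stayed under that minimum and was not tested. Zic1 was lower in iHoxc9 and iHoxc10 on both scales. These comparisons share the no Dox list, so their likeness is not independent, and Zic1 and Zic4 share domains.

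**Figure D5:**
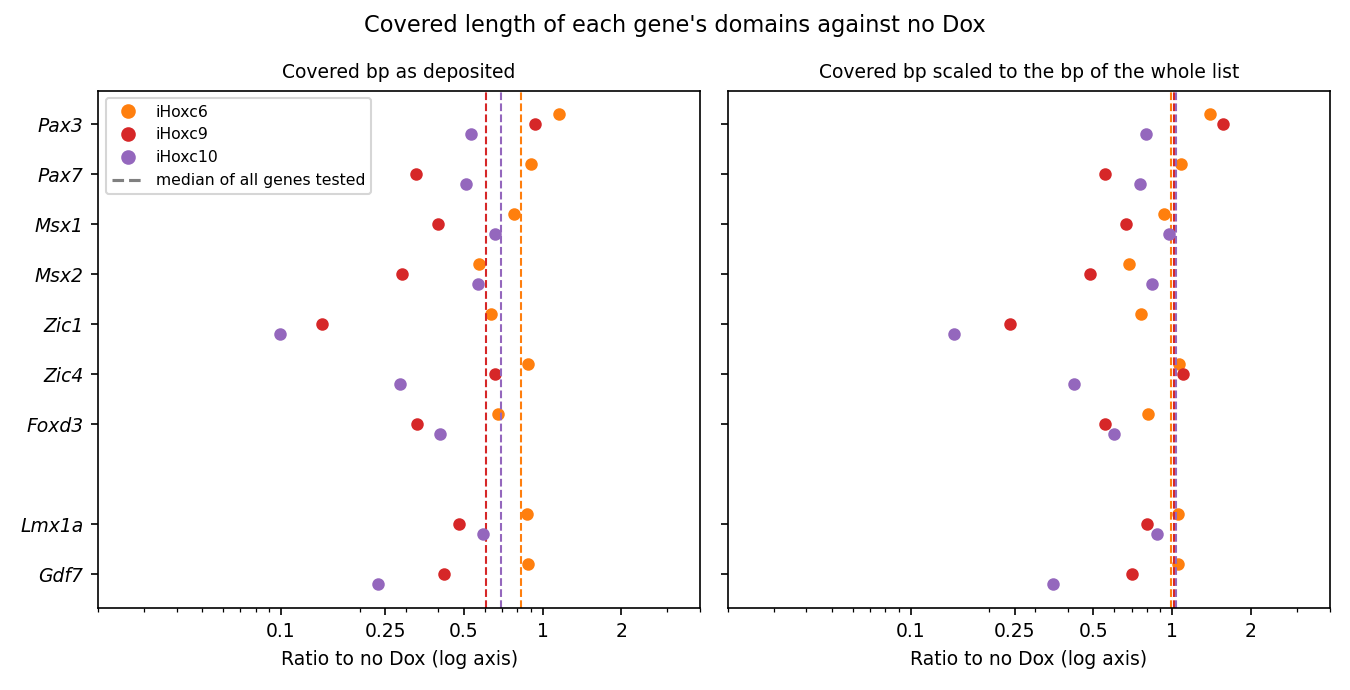
Covered length of each gene's domains in iHoxc6, iHoxc9 and iHoxc10 divided by that in no Dox (log axis), as deposited (left) and scaled to the covered bp of the whole list (right). Dashed lines are the medians of all genes tested, and Sox10 is left out because no Dox held 155 bp. Zic1 lies farthest to the left in iHoxc9 and iHoxc10 in both panels, and the iHoxc6 points lie around their median.

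Other genes of the dorsal tube, roof plate and crest were counted for comparison. They numbered 36, among them the Wnt1 and Bmp7 signals, the proneural factor Atoh1 and the crest factors Sox9 and Tfap2a. Of 36 tested, 6 were higher and 3 lower in progenitors than in EBs, where 8.76% of all genes were higher and 7.8% lower. Scaled, 4 were higher and 3 lower, where 6.24% and 9.76% of all genes were. Relative to no Dox and as deposited, 2 of 34 were lower after HOXC6 induction, 16 of 34 after HOXC9 and 6 of 35 after HOXC10, and 0 were higher. Over all genes 5.12%, 31% and 17.3% were lower. Scaled, 1, 8 and 3 of the related genes were lower, where 2.56%, 8.22% and 5.5% of all genes were. Also scaled, 2 of 35 were higher after HOXC10, where 1.66% of all genes were. Median ratios were 0.763, 0.51 and 0.62 as deposited and 0.916, 0.853 and 0.917 scaled. A set of 10 genes taken here as ventral held Foxa2, Shh, Nkx2-2, Nkx2-9, Nkx6-1, Nkx6-2, Olig1, Olig2, Pax6 and Irx3. Of these, Pax6 and Irx3 are not restricted to the ventral tube. In progenitors 6 were higher than in EBs (Nkx2-9, Nkx6-1, Nkx6-2, Olig2, Olig1 and Irx3) and 0 lower, where 8.76% of all genes were higher. Scaled, 5 were higher, where 6.24% of all genes were. The median ratio of this set was 2.21 as deposited, where the 9 dorsal and crest genes tested first had 0.861 and the 36 related genes 1.08. After induction 0 of 10 ventral genes were lower in iHoxc6, 8 in iHoxc9 and 1, Foxa2, in iHoxc10, with medians of 0.857, 0.413 and 0.728, beside the same 5.12%, 31% and 17.3% of all genes. Scaled, 0, 2 and 0 ventral genes were lower, beside the same 2.56%, 8.22% and 5.5% of all genes, and the medians were 1.03, 0.691 and 1.08.

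Merged over the 6 lists, the domains of the 10 genes formed 274 regions, of which 24 overlapped a promoter window of these genes. The counts below were not set beside those over all merged regions, so whether they are particular to these genes was not tested. Regions held by a single list numbered 173, and 108 of those were under 50 bp wide. EBs alone held 76, iHoxc6 31, no Dox 28, progenitors 23, iHoxc9 9 and iHoxc10 6. By contrast 17 regions were held by all 6 lists, with a median width of 660 bp, and 9 by every list but EBs, with a median of 599 bp. Msx2 and Lmx1a had 4 constant regions each, Pax7, Zic4 and Foxd3 2 each, and Sox10 none. A region is the union of its domains, so its width grows with the number of lists merged, and a wider domain has more chance to overlap another. Lists that hold the same region need not share a base within it.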

How the data were processed

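Per the labels and the study's methods, ATAC-seq reads were paired-end and were mapped by the authors to mm10 with Bowtie2 2.2.2; Picard 2.8.2 is also listed in the submitters' processing notes. Accessible domains were called with DomainFinder, whose settings are not given in the sources used here. The deposited values are domain starts and ends, 1 list per group from both replicates, with no counts or scores. The no Dox list carried another day in its name than in its label, and a p threshold that the other names lack; the label was used, and its settings may differ. Starts were read as counted from 0, which is not stated, so positions may be off by 1 bp.

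Genes and TSSs (every start of a protein-coding transcript) came from GENCODE M21, and sequences from the RefSeq mm10 genome. Domains were assigned, merged and compared with Python 3.11.15, NumPy 2.4.6 and SciPy 1.17.1; 3720 interval and motif checks on simulated data gave 0 differences. All 10 genes were named, with regions by the rule given in the text. The genes and gene lists were chosen with earlier results of these data known. Replicates cannot be separated, so no tests were made. Alternatives changed the minimum width (150 bp), list length, counterpart overlap (50%), promoter window (5 kb), TSS set, distance limit (100 kb), assignment, gene set and motif window.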

Additional observations from a re-analysis of the deposited data

How the results depend on the processing

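No paired analysis was possible because each group has 1 list made from both replicates, and for the same reason no replicate could be left out. Of 233 alternative values, 191 stayed within 1.5 times the count or inside the 95% interval and 42 moved. The tally includes values that a setting does not affect, such as domain counts under a stricter overlap. With a 5 kb promoter only promoter counts changed, to 10 genes in iHoxc6, 8 in iHoxc9 and 6 in iHoxc10, beside 9 in EBs. All 28 results stayed within those limits there, with 1 TSS per gene and without Zic4, the gene with the most domains (131 over the lists). The depth behind the domains is unknown, so absence from a list does not show closed chromatin.

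With domains of at least 150 bp only, EB, progenitor, no Dox, iHoxc6, iHoxc9 and iHoxc10 held 64, 60, 51, 53, 31 and 31 domains. Promoter domains were at 4 genes in iHoxc9 and 3 in iHoxc10, without a share over all genes at that width. Of no Dox domains 31.4% lacked a progenitor counterpart, and 17% of iHoxc6 domains were held by neither progenitors nor no Dox. Of the shares in this paragraph, only those of domains shared by progenitors and no Dox were also computed over all domains, as given below. Whether the other shares are particular to these genes was not tested. With each list reduced to its 56232 widest domains, EB, no Dox and iHoxc6 held 86, 60 and 68, 54.7% of EB domains lacked a progenitor counterpart, 21.7% of no Dox domains lacked one, and 17.6% of iHoxc6 domains were held by neither. With a counterpart covering 50% of the domain, the shares rose to 79.1% for EB without progenitors, 61.7% for progenitors without EB, 57.9% for progenitors without no Dox, 58.2% for no Dox without progenitors, and 33.3%, 64.4% and 57.8% for the shared domains lacked by iHoxc6, iHoxc9 and iHoxc10, by the construction of a stricter overlap. Within 100 kb of a TSS, EBs held 88. With promoters and gene bodies alone the lists held 38, 41, 39, 46, 28 and 24 domains over 12499, 12598, 12086, 10099, 5674 and 5003 bp, 47.4% of EB domains lacked a progenitor counterpart, 36.6% of progenitor domains lacked a no Dox counterpart, 30.8% of no Dox domains lacked a progenitor counterpart, and 17.9% of iHoxc9 domains were held by neither. In the central 200 bp of the windows TTTAT fell to 4 matches and ACAATG to 1.

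The iHoxc9 share lay above the background under each planned setting applied to both. It was 47.1% against 30.3% at 150 bp, 43.5% against 23.6% at equal list length, and 64.4% against 42.7% at 50% overlap. In the same order iHoxc10 had 44.1% against 23.5%, 30.4% against 18.7% and 57.8% against 35.3%. For iHoxc6 the shares were 11.8% against 12.6%, 15.2% against 11.4% and 33.3% against 21.4%. Outside promoters, the setting added later, iHoxc9 had 52.2% against 38.4%, a background inside the interval of 38.1 to 65.9. There iHoxc10 had 32.6% against 36.3% and iHoxc6 17.4% against 17.7%, both below the background.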

Other observations

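Among the 36 related genes, Gsx2, a factor of dorsal interneuron progenitors, had domains over 1373 bp in EBs, 1486 bp in progenitors, 573 bp in no Dox, 520 bp in iHoxc6, 30 bp in iHoxc9 and 250 bp in iHoxc10, lowest in iHoxc9. Wnt1, a roof plate ligand, had 193 bp in EBs and 1210, 869, 1309, 771 and 1094 bp in the later lists, with no promoter domain in no Dox and 2 in each induced list. These genes were chosen after their values were seen.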
